A study of Rattus norvegicus and Mus musculus with 18 samples.

Results

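The genes described here are 9 components of the Hedgehog pathway in mouse skin wounds, namely the ligand Shh, its receptor Ptch1, the co-receptors Gas1, Boc and Cdon, the signal transducer Smo and the transcription factors Gli1, Gli2 and Gli3. They were chosen by name, with earlier results of these data known. Each matched 1 Ensembl row of the 49548 genes in the mouse table. Expression was measured in 3 libraries of wound epidermis and 3 of wound dermis from adult mice, taken 1 day after the scab had come off, which the study's design text gives as the time when hair follicles regenerate in mice. No strain, genotype or treatment beyond wounding is given in the labels, and nothing says whether each library of a tissue is a different animal. The p-values below therefore reflect library-to-library spread, which may be technical. The RNA was copied by SMART-seq2, which amplifies full-length cDNA from polyadenylated RNA, and values are in TPM, which gives each gene's part of all transcripts in its library, corrected for transcript length.

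In the Hedgehog pathway, a secreted ligand binds Patched on the receiving cell and lifts its block on Smoothened, which then acts at the primary cilium to shift Gli proteins from repressor to activator forms. Gli3 works mainly as a repressor and Gli2 mainly as an activator, while Gli1 is an activator whose own gene is switched on by the pathway, as is Ptch1. In growing hair follicles the epithelium makes Shh, and both the epithelium and the dermal cells beneath it respond.

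The Gli proteins bind DNA through zinc fingers, whose coding sequence is well conserved between the genes. The stretches below show how alike they are, since 43 base and 86 base reads had to be assigned to 1 of the 3 genes. They are the coding strand of 150 bases from each gene (GENCODE transcripts, mm10), and capitals mark the 116 bases, 77.3%, that are the same in all 3. Gli1 is shown from chr10:127333691-127334240 (minus strand, exons 10 and 11 of 13), Gli2 from chr1:118842090-118844392 (minus strand, exons 11 and 12 of 14) and Gli3 from chr13:15715073-15720162 (plus strand, exons 12 and 13 of 15), each span including the intron between the exons.
Gli1: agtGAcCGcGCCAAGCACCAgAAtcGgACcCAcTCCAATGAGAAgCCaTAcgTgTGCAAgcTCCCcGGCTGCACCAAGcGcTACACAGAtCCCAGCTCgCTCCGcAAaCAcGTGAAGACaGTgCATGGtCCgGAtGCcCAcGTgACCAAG
Gli2: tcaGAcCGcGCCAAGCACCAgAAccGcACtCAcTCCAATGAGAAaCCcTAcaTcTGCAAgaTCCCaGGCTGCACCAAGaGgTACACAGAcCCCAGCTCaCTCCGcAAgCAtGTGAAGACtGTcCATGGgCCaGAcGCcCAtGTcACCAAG
Gli3: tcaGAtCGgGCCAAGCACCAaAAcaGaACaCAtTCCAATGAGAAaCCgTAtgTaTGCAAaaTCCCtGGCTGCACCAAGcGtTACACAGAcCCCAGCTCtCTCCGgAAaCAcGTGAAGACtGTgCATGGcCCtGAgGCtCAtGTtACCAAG
Differences recur every few bases, and the longest identical run between full transcripts was 25 bases for Gli2 and Gli3, 23 bases for Gli1 and Gli2 and 14 bases for Gli1 and Gli3. Boc and Cdon, which are related to each other, shared at most 31 bases. All of these runs are shorter than the 43 base read length.

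Gli proteins are known to act on Ptch1 through sites in its control region. The promoter windows used here are from rat, the other species of the series, and come from RefSeq (GRCr8). They run from 250 bases before to 50 bases after each gene start. The motif GACCACCCA was searched on both strands, where its reverse strand reads TGGGTGGTC, and 129 of 33469 windows held it, 0.385%. Of the 6 members with a window, Ptch1 held 1 match, shown in capitals in its window at chr17:1555321-1555620 (plus strand), because Ptch1 is both the receptor and a target.
Ptch1: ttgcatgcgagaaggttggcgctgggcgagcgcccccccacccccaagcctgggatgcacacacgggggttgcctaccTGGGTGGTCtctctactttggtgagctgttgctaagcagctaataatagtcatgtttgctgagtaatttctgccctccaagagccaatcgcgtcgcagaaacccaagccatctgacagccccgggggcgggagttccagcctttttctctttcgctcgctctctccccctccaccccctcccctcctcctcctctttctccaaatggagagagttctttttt
The windows of Smo, Gli2, Gli3, Boc and Cdon held 0 matches, which says only that these letters are not in those windows.

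Fibroblast markers followed the tissue labels, while keratinocyte markers were also present in the dermis libraries, at unequal levels. All 10 fibroblast markers were lower in wound epidermis, with a summed level of 43.9 to 154 TPM there against 44904 to 70268 TPM in wound dermis, and 0 of the 10 were at 0 in every epidermis library. The 8 markers of differentiated keratinocytes summed to 36614 to 76812 TPM in epidermis, against 949 and 360 TPM in dermis replicates 1 and 3 and 13406 TPM in dermis replicate 2. The 6 basal keratinocyte markers summed to 6711 to 17643 TPM in epidermis, against 1842, 3350 and 243 TPM in dermis replicates 1, 2 and 3. As a median over each list, dermis replicate 2 held 23.9% of the epidermis mean for differentiated and 42.2% for basal markers, and dermis replicate 1 held 1.13% and 15.6%. The members' results are also given without each of these libraries where they could be tested. Among layer markers, Col1a1, Pdgfra and Vim were lower in epidermis, with log2 fold changes of -10.65, -4.58 and -5.44, and Krt5, Krt14 and Krt10 were higher, at 2.81, 3.27 and 5.34 (limma adjusted p at most 0.027). All 6 endothelial, 6 macrophage and 6 smooth muscle and pericyte markers were lower in epidermis. Of all genes tested, 39.3% were called lower and 17.0% higher. Lum, Pdgfra, Twist2, Cdh5, Emcn, Kdr, Cldn5, Adgre1, Myh11, Tagln, Cspg4 and Pdgfrb had no epidermis library at 1 TPM. They entered the test through the dermis libraries alone, so the filter of 1 TPM in at least 3 libraries fixed their direction. Between 13117 and 14012 genes reached 1 TPM in epidermis libraries and between 15958 and 16257 in dermis libraries. TPM keeps no record of read number, so the depth behind each value is unknown.

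Most Hedgehog components had higher levels in wound dermis than in wound epidermis, and the ligand Shh was near 0 throughout. Gas1, Gli3, Smo, Boc, Cdon and Ptch1 were above 1 TPM in every dermis library and lower in every epidermis library. Gli3, Gas1 and Cdon showed the steepest differences. Among the genes tested, those with at least 1 TPM in 3 or more libraries, 45.3% likewise had no overlap on the lower side. Cdon and Ptch1 could not have overlapped, since they met this filter through the dermis libraries alone. Gas1, Smo and Boc were still above 1 TPM in every epidermis library. Shh alone stayed under 1 TPM in all 6 libraries, and Shh, Ptch1, Gli1, Gli2 and Cdon stayed under 1 TPM in all 3 epidermis libraries. This holds for TPM as deposited, and Ptch1 lay close to the line, at 0.72 to 0.99 TPM. The 5 members became 4 after median-of-ratios scaling or without the 50 most abundant genes, and 6 without epidermis replicate 3.

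**Figure D1:**
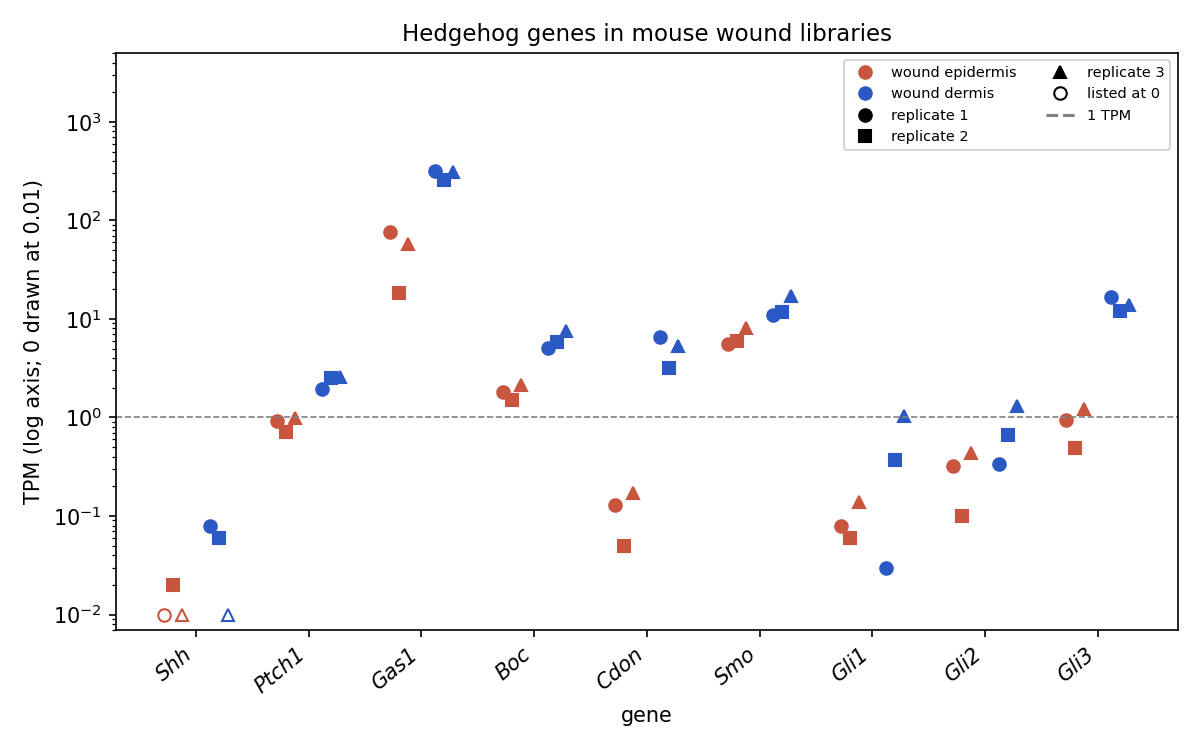
TPM of the 9 Hedgehog genes (log axis) in each mouse wound library, with epidermis in red to the left and dermis in blue to the right of each gene; shapes are replicates, open symbols are values listed at 0, and the dashed line is 1 TPM. For Ptch1, Gas1, Boc, Cdon, Smo and Gli3 the 3 epidermis libraries lie below all 3 dermis libraries, while for Shh, Gli1 and Gli2 the tissues overlap. Of all genes tested, 45.3% lie lower in epidermis without overlap.

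Shh, the ligand of hair follicle epithelium, was listed at 0, 0.02 and 0 TPM in epidermis replicates 1, 2 and 3, against 0.08, 0.06 and 0 TPM in dermis replicates 1, 2 and 3 (Ensembl ENSMUSG00000002633, chromosome 5 from 28456815 to 28467256, minus strand, mm10, protein-coding). All 6 values lie at or near 0 and the tissues overlap. Of the 43 base windows of Shh, 24.3% also occur in 9530036O11Rik or Gm26894, non-coding genes on the opposite strand that were listed at 0 in all 6 libraries. The other ligands were sparse as well. Ihh, which is best known from growing cartilage, was listed at 0 in all 3 epidermis libraries and in dermis replicates 1 and 2, and had 0.05 TPM in dermis replicate 3.

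Dhh, the ligand of Schwann cells, was the most abundant of the 3 ligands. It was listed at 0 in all 3 epidermis libraries, against 1.17, 1.29 and 5.06 TPM in dermis replicates 1, 2 and 3. Its dermis level thus rested most on replicate 3, and it was called lower in epidermis (limma adjusted p = 0.0097). Dhh entered the test through the dermis libraries alone, so the filter fixed this direction. No fold is given, since every epidermis library is listed at 0.

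Ptch1, the receptor, had 0.93, 0.72 and 0.99 TPM in epidermis replicates 1 to 3, against 1.94, 2.53 and 2.57 TPM in dermis replicates 1 to 3 (ENSMUSG00000021466, chromosome 13 from 63508328 to 63573598, minus strand). Every epidermis library lay below every dermis library and below 1 TPM. Ptch1 thus entered the test through the dermis libraries alone, so the filter fixed this direction. On the log2(TPM + 1) scale, which understates the change of genes near 1 TPM, Ptch1 fell by 0.83 in epidermis (95% interval -1.25 to -0.41, limma adjusted p = 0.0065). The median of all 15982 genes tested lay at -0.42 on this scale, so Ptch1 stood 0.41 below it, and 36.2% of genes lay lower still. Under quantile normalization the value was -0.04 (adjusted p = 0.87), with median-of-ratios factors -0.55 (adjusted p = 0.023), and with a pseudocount of 0.1 it was -1.32 (adjusted p = 0.010).

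Gas1, a membrane-anchored co-receptor that helps present ligand to Ptch1, was the most abundant member in both tissues. Its levels were 76.6, 18.4 and 57.4 TPM in epidermis replicates 1 to 3, against 317.7, 255.1 and 312.0 TPM in dermis replicates 1 to 3 (ENSMUSG00000052957, chromosome 13 from 60174405 to 60177365, minus strand). The tissues did not overlap, and epidermis replicate 2 was well below the other two. Mean Gas1 levels were 50.8 ± 29.6 TPM for the epidermis libraries and 294.9 ± 34.6 TPM for the dermis libraries (SD, n = 3 each). Gas1 fell by 2.73 on the log2 scale (95% interval -3.88 to -1.57, limma adjusted p = 0.0031). It kept passing without epidermis replicate 2, at -2.13 (adjusted p = 0.00096), and without dermis replicate 2, at -2.83 (adjusted p = 0.0064). Of its 43 base windows, 17.4% also occur in Gm48488, a long non-coding RNA gene on the opposite strand. Reads of the 2 genes in these windows cannot be told apart without strand, and Gm48488 had no value under that name here.

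Boc and Cdon are cell surface co-receptors of the immunoglobulin superfamily that bind Hedgehog ligands. Boc had 1.80, 1.51 and 2.15 TPM in epidermis replicates 1 to 3, against 5.12, 5.79 and 7.5 TPM in dermis replicates 1 to 3 (ENSMUSG00000022687, chromosome 16 from 44485049 to 44558897, minus strand). It was low but above 1 TPM in every epidermis library, and it fell by 1.33 on the log2 scale (95% interval -1.84 to -0.83, limma adjusted p = 0.0019). Without dermis replicate 2 Boc stood at -1.36 (adjusted p = 0.0062), and quantile normalization moved it to -0.59 (adjusted p = 0.045).

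Cdon had 0.13, 0.05 and 0.17 TPM in epidermis replicates 1 to 3, against 6.48, 3.14 and 5.30 TPM in dermis replicates 1 to 3 (ENSMUSG00000038119, chromosome 9 from 35421128 to 35507652, plus strand). Cdon was thus near 0 in epidermis, where its mean was 2.35% of the dermis mean, whereas its relative Boc kept 29.7%. Like Ptch1, Cdon entered the test through the dermis libraries alone, so the filter fixed its direction. Cdon fell by 2.38 on the log2 scale (95% interval -2.97 to -1.79, limma adjusted p = 0.00027), and by 4.53 with a pseudocount of 0.1 (adjusted p = 0.00026). In dermis the library ranges of Boc and Cdon overlapped, and in epidermis they did not. Without any 1 dermis library, Cdon and Ptch1 reached 1 TPM in too few libraries to be tested.

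Smo, the transducer that Ptch1 holds in check, was the second most abundant member in epidermis. It had 5.57, 6.01 and 8.11 TPM in epidermis replicates 1 to 3, against 11.01, 11.7 and 17.2 TPM in dermis replicates 1 to 3 (ENSMUSG00000001761, chromosome 6 from 29735503 to 29761365, plus strand). Every epidermis library was below every dermis library, and the epidermis mean was 49.3% of the dermis mean. Smo fell by 0.91 on the log2 scale (95% interval -1.50 to -0.32, limma adjusted p = 0.017). The call depended on the setting. It was lost with median-of-ratios factors (-0.48, adjusted p = 0.11), after quantile normalization (-0.35, adjusted p = 0.24), without epidermis replicate 1 (-0.81, adjusted p = 0.069) or dermis replicate 3 (-0.72, adjusted p = 0.065), and with replicate 2 of both tissues left out (-0.93, adjusted p = 0.057). Without dermis replicate 2 alone Smo stood at -0.98 (adjusted p = 0.031). Of its 43 base windows, 2.86% also occur in the pseudogene Gm4066 or in Unc5b.

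Gli3 was the most abundant of the Gli genes. Its levels were 0.95, 0.49 and 1.22 TPM in epidermis replicates 1 to 3, against 16.8, 12.0 and 13.9 TPM in dermis replicates 1 to 3 (ENSMUSG00000021318, chromosome 13 from 15463235 to 15730026, plus strand). Epidermis lay around 1 TPM and dermis above 10 TPM, with no overlap. Gli3 fell by 3.02 on the log2 scale (95% interval -3.58 to -2.46, limma adjusted p = 7e-05), and 6.63% of the genes tested lay lower. It passed under all 15 alternatives, from -3.92 to -2.37, and stood at -3.12 without dermis replicate 2. Among epidermis libraries only replicate 3 reached 1 TPM, so Gli3 entered the test mainly through the dermis libraries.

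Gli1, whose transcript is the usual readout of active signalling, had 0.08, 0.06 and 0.14 TPM in epidermis replicates 1 to 3, against 0.03, 0.37 and 1.03 TPM in dermis replicates 1 to 3 (ENSMUSG00000025407, chromosome 10 from 127329882 to 127341974, minus strand). Only dermis replicate 3 reached 1 TPM, and dermis replicate 1 was below all epidermis libraries. Of the 43 base windows of Gli1, 6.10% also occur in other genes, Gm47200 and Arhgap9, which overlap it on the opposite strand. Of these windows, 225 are in Gm47200, which had no value under that name here, and 20 are in Arhgap9. Arhgap9 itself had 1.83 to 3.12 TPM in epidermis and 10.7 to 22.6 TPM in dermis.

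Gli2 had 0.32, 0.10 and 0.44 TPM in epidermis replicates 1 to 3, against 0.34, 0.66 and 1.30 TPM in dermis replicates 1 to 3 (ENSMUSG00000048402, chromosome 1 from 118834132 to 119053619, minus strand). Only dermis replicate 3 exceeded 1 TPM, and the lowest dermis library lay inside the epidermis range. Shh, Gli1 and Gli2 were below the filter of 1 TPM in at least 3 libraries. In a fit of all 30354 genes above 0 they stood at -0.06 (95% interval -0.17 to 0.05), -0.38 (-0.96 to 0.20) and -0.43 (-0.98 to 0.12), and their adjusted p-values were 0.42, 0.30 and 0.21.

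Of the 9 members, 6 entered the test, and all 6 were called lower in epidermis, where 39.3% of all genes tested were called lower, 17.0% higher and 56.3% either way. The same 6 had no overlap between tissues, as had 45.3% of genes tested on the lower side and 20.8% on the higher side. With no filter 6 of the 9 were called lower (21.8% of all genes), with median-of-ratios factors 5 of 6 (30.3%) and after quantile normalization 4 of 6 (26.2%). The count over members that passed the filter is a description only, because some of them passed it through the dermis libraries. Ptch1 and Cdon had no epidermis library at 1 TPM, and all 1960 tested genes of that kind were without overlap between tissues by construction. Gas1, Smo and Boc were at 1 TPM or more in all 6 libraries, so the filter did not decide their direction. Gli3 reached 1 TPM in 1 epidermis library, and its 3 dermis libraries met the filter by themselves. Its direction was thus not independent of the filter. With 3 libraries against 3, a two-sided exact permutation test of a single gene cannot go below p = 0.1, and it gave p = 0.1 for each of these 6 genes, 0.2 for Gli2 and 0.4 for Shh and Gli1. Without dermis replicate 1, Gli3, Gas1, Boc and Smo stood at -2.90, -2.67, -1.44 and -1.02 (limma adjusted p = 0.0017, 0.020, 0.0093 and 0.034). In bulk tissue, fewer cells of a type and less RNA per cell cannot be told apart.

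**Figure D2:**
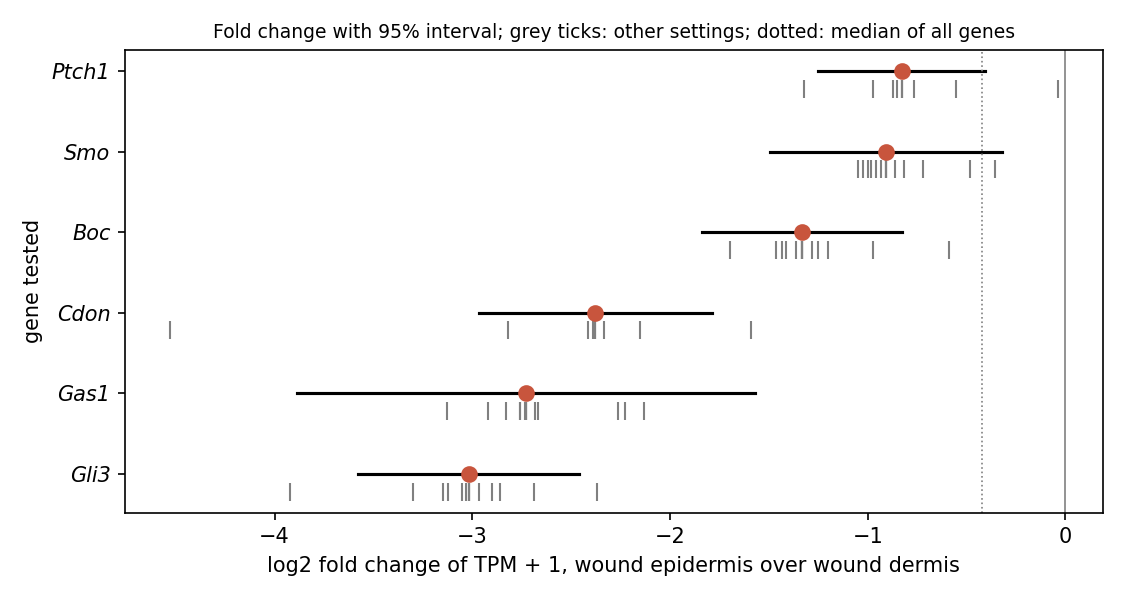
Log2 fold change of TPM + 1, wound epidermis over wound dermis, for the 6 members tested (points), with 95% intervals (lines), the values under other settings (grey ticks) and the median of all genes (dotted). Gli3, Gas1 and Cdon lie left of -2, and Ptch1 and Smo have ticks near 0, from quantile normalization at -0.04 and -0.35.

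The order of levels differed between the tissues. By median TPM in epidermis the order was Gas1, Smo, Boc, Gli3, Ptch1, Gli2, Cdon, Gli1 and Shh, with overlapping library ranges between Gli3 and Ptch1, Gli2 and Cdon, and Cdon and Gli1. In dermis the order was Gas1, Gli3, Smo, Boc, Cdon, Ptch1, Gli2, Gli1 and Shh, with overlap between Gli3 and Smo, Boc and Cdon, Gli2 and Gli1, and Gli1 and Shh. Gas1 stood apart from the next gene in both, with its lowest library at 18.4 TPM in epidermis against a highest of 8.11 TPM for Smo. Gli3 had rank 4 in epidermis and rank 2 in dermis, and Cdon had rank 7 in epidermis and rank 5 in dermis.

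Members differed in how much of their dermal level the epidermis libraries held. As a share of the dermis mean, the epidermis mean was 49.3% for Smo, 37.5% for Ptch1, 37.4% for Gli2, 29.7% for Boc, 19.6% for Gli1, 17.2% for Gas1, 6.24% for Gli3 and 2.35% for Cdon, with no share given for Shh, which is near 0 in both. For the fibroblast markers the same share was 0.08% for Col1a1, 0.50% for Pdgfra and 2.13% for Vim, and Fbln1, at 35.6%, was the exception among the 10. Over the fibroblast list the median share was 0.08%, 0.02% and 0.20% in epidermis replicates 1, 2 and 3. Epidermis replicate 2, with the lowest fibroblast share, was also lowest for Gas1, Gli3, Cdon, Boc, Ptch1, Gli1 and Gli2, but not for Smo or Shh. That library differed in other ways too. It had the fewest genes at 1 TPM (13117), the smallest median-of-ratios factor (0.74) and the highest sum of differentiated keratinocyte markers (76812 TPM). The part of carried-over fibroblast RNA in the epidermal values of Gas1, Gli3 and Cdon was not tested.

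**Figure D3:**
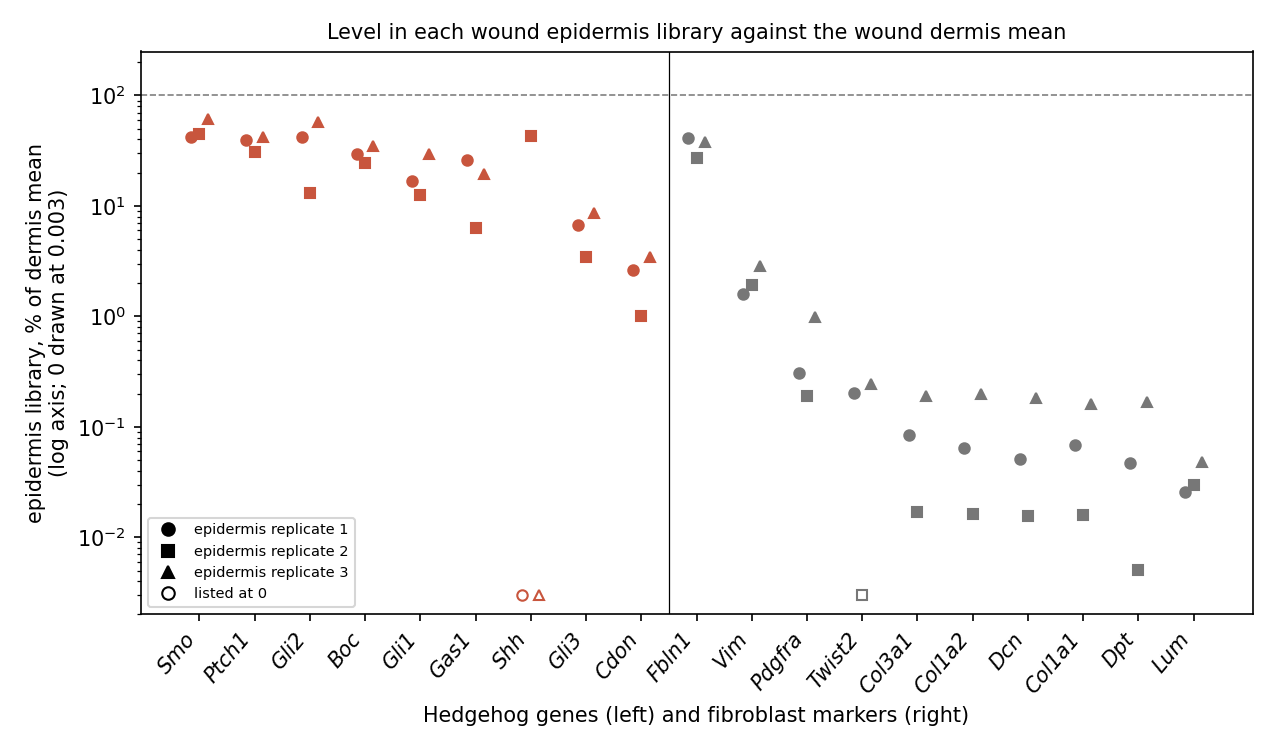
Level in each wound epidermis library as a percent of the wound dermis mean (log axis), for the 9 Hedgehog genes in red and the 10 fibroblast markers in grey; shapes are replicates and open symbols are values listed at 0. All Hedgehog values above 0 lie at 1.01% or more, while 8 of the fibroblast markers, all except Fbln1 and Vim, lie below 1%.

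The 3 dermis libraries differed in their levels of several members. Ptch1, Smo, Boc, Gli1 and Gli2 were each lowest in dermis replicate 1 and highest in replicate 3, as was Dhh. Gli3, Gas1, Cdon and Shh were instead highest in dermis replicate 1. Among Schwann cell markers, Sox10 had 0.26, 2.81 and 8.00 TPM, S100b 1.49, 1.84 and 4.53 TPM and Cdh19 0.62, 2.46 and 3.78 TPM in dermis replicates 1, 2 and 3. These 3 were highest in replicate 3, while Erbb3, at 1.22, 6.25 and 3.43 TPM in these libraries, was highest in replicate 2. Genes of other kinds were also highest in replicate 3, such as Igfbp6 at 33.4, 35.7 and 130.9 TPM and the skeletal muscle list, which summed to 15.8, 20.1 and 45.0 TPM in dermis replicates 1, 2 and 3. In epidermis Sox10 and Cdh19 were listed at 0 in every library and S100b had 0.05 to 0.21 TPM, while Erbb3, at 16.5 to 19.7 TPM, was higher there than in dermis. The part of Schwann cells in the levels of Gli1, Gli2 and Dhh was not tested, and 3 libraries allow no test of an order.

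**Figure D4:**
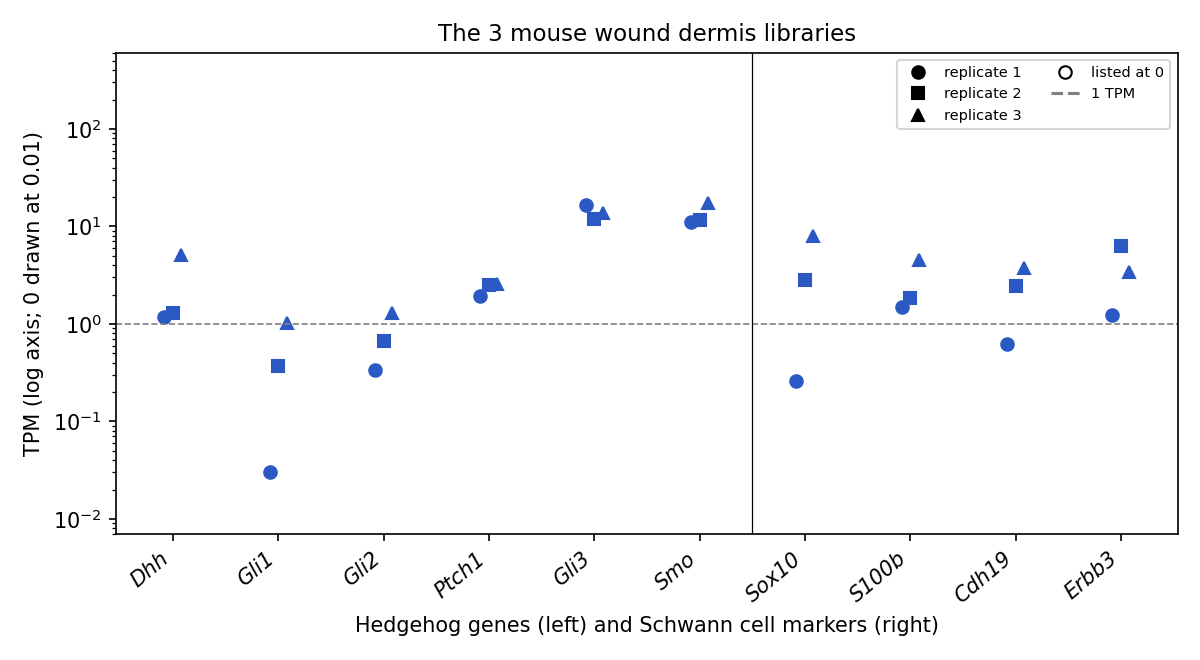
TPM (log axis) in the 3 mouse wound dermis libraries for 6 Hedgehog genes and 4 Schwann cell markers; shapes are replicates, the dashed line is 1 TPM and no value shown is listed at 0. Replicate 3 is highest for every gene shown except Gli3, where replicate 1 is highest, and Erbb3, where replicate 2 is highest.

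Hair placode and matrix markers were scarce in both tissues, and dermal papilla markers were mixed. Of the 6 hair placode and matrix markers found, 4 stayed under 1 TPM in every library, and the list summed to 1.82 to 3.63 TPM in epidermis and 2.65 to 3.89 TPM in dermis. The 8 dermal papilla markers summed to 0.82 to 3.95 TPM in epidermis and 218.0 to 288.9 TPM in dermis, most of it from Crabp1, which had 0.54 to 3.14 TPM in epidermis and 210.8 to 280.9 TPM in dermis. Rspo3 had a mean of 0.133 TPM in epidermis and 3.40 TPM in dermis, and Lepr 0.21 TPM in epidermis and 3.19 TPM in dermis. These 3 were the markers tested, and each was called lower in epidermis, Rspo3 and Lepr having entered through dermis alone. Over all genes tested, 39.3% were called lower. Corin, Alx4 and Sox2 stayed under 1 TPM in every library.

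Beyond the members, 65 other genes of the pathway were listed by role, with earlier results of these data known, and 52 were tested. Of these, 32 were lower and 5 higher in epidermis (61.5% and 9.6%), where 39.3% and 17.0% of all genes tested were. Given how the lists were made, these shares are a description only. However, 9 of the 32, namely Btrc, Dhh, Disp1, Foxf1, Gpc3, Kif7, Osr2, Scube2 and Snai1, had no epidermis library at 1 TPM and entered the test through dermis alone, so the filter fixed their direction. Of the other 43 genes tested, 23 were lower and 5 higher. The shares over all genes include the 1960 tested genes with no epidermis library at 1 TPM. They are thus not a matching background for these 43, and no matching share is given here. The median log2 fold change of the 52 was -1.13, against -0.42 for all genes, and it includes those 9. Without dermis replicate 2, 19 of 43 tested were lower (44.2%, against 27.1% of all genes), and under quantile normalization 20 of 52 were lower (38.5%, against 26.2%) and 8 higher (15.4%, against 29.4%).

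Of the 12 genes for ligands, ligand release and binding, 5 were tested and called lower, as were 39.3% of all genes tested. The filter fixed this direction for 4 of them, Dhh, Disp1, Gpc3 and Scube2, and Hhat alone had epidermis libraries at 1 TPM. Gpc3, a glypican that binds Hedgehog ligand at the cell surface, had 0.36, 0.32 and 0.51 TPM in epidermis replicates 1 to 3, against 205.0, 199.4 and 288.2 TPM in dermis replicates 1 to 3. The tissues lay far apart, and Gpc3 fell by 7.36 on the log2 scale (limma adjusted p = 1.1e-05). Hhat, the enzyme that attaches palmitate to Hedgehog ligands, had a mean of 2.41 ± 0.10 TPM over epidermis libraries and 15.8 ± 4.5 TPM over dermis libraries (SD, n = 3 each) and fell by 2.26 (adjusted p = 0.0004). Scube2, a secreted protein that helps release the ligand, fell by 1.94 (adjusted p = 0.00047), or by 4.60 with a pseudocount of 0.1, and Disp1, the transporter that exports it, fell by 1.36 (adjusted p = 0.0068). Hhip, a decoy that traps ligand and is itself a target gene, was at most 0.13 TPM in any library.

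Of 27 listed genes that carry the signal from Smo to the Gli proteins, 25 were tested, with 13 lower, 5 higher and 7 not called. Kif7 and Btrc were among the lower genes that entered through dermis alone. Over all genes tested, 39.3% were called lower, and the number higher here lay near the 17.0% of all genes. Kif7, the cilium kinesin that controls Gli processing, had 0.75, 0.52 and 0.42 TPM in epidermis replicates 1 to 3, against 10.9, 7.36 and 10.0 TPM in dermis replicates 1 to 3. Kif7 did not overlap between the tissues and fell by 2.73 (limma adjusted p = 7.4e-05). Prkacb, a catalytic subunit of protein kinase A, fell by 2.44 (adjusted p = 0.00033), and Arrb2, a beta-arrestin involved in Smo trafficking, fell by 2.20 (adjusted p = 0.00063).

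The 5 higher genes were Cul3, Csnk1e, Csnk1a1, Ulk3 and Grk2. Cul3, the scaffold of a ubiquitin ligase that degrades Gli proteins, had 88.2, 90.9 and 64.8 TPM in epidermis replicates 1 to 3, against 32.5, 27.3 and 35.8 TPM in dermis replicates 1 to 3. It rose by 1.32 (limma adjusted p = 0.0021). The casein kinases Csnk1e and Csnk1a1 rose by 1.03 and 0.93 (adjusted p = 0.0074 and 0.018), and Csnk1a1 stood at 1.40 under median-of-ratios scaling and missed the threshold without epidermis replicate 3 (adjusted p = 0.051) or dermis replicate 1 or 3 (0.074 and 0.076). The kinases Ulk3 and Grk2 rose by 0.85 and 0.66 (adjusted p = 0.024 and 0.023). These kinases and Cul3 act in many other pathways. Sufu, the main inhibitor of Gli proteins, was not called, with 2.72, 2.33 and 3.54 TPM in epidermis replicates 1 to 3, against 3.28, 3.55 and 5.43 TPM in dermis replicates 1 to 3, and a log2 fold change of -0.38 (95% interval -0.95 to 0.18).

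All 10 cilium assembly genes were tested, and 7 were lower and 3 not called. Over all genes tested, 39.3% were called lower. Ift122 and Ift172, which move cargo along the cilium, fell by 1.86 and 1.12 (limma adjusted p = 0.00077 and 0.0081), and Rpgrip1l, at the base of the cilium, fell by 1.76 (adjusted p = 0.00048). Ift172 missed the threshold with median-of-ratios factors (-0.69, adjusted p = 0.074) and under quantile normalization (-0.57, adjusted p = 0.13), where Ift122 stood at -1.14 and Rpgrip1l at -1.01. Ift88, Ift52 and Arl13b were not called.

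Of 18 genes known as Hedgehog targets in various tissues, 12 were tested, with 7 lower, 0 higher and 5 not called. Over all genes tested, 39.3% were called lower and 17.0% higher. Foxf1, Osr2 and Snai1 entered the test through dermis alone. Osr2, a zinc finger transcription factor, had 0.07, 0 and 0.27 TPM in epidermis replicates 1 to 3, against 51.7, 47.4 and 36.0 TPM in dermis replicates 1 to 3. It was near 0 in every epidermis library and fell by 5.36 (limma adjusted p = 1.1e-05). Snai1, a repressor of epithelial genes, fell by 4.03 (adjusted p = 2.9e-05), or by 6.70 with a pseudocount of 0.1. Igfbp6, which binds insulin-like growth factors, fell by 3.94 (adjusted p = 0.0018). Ccnd1, Sfrp1, Bmp4, Jag2 and Cdk6 were not called. These genes have other inputs besides Hedgehog, and Gli1 and Hhip, targets within the pathway itself, were below the filter.

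**Figure D5:**
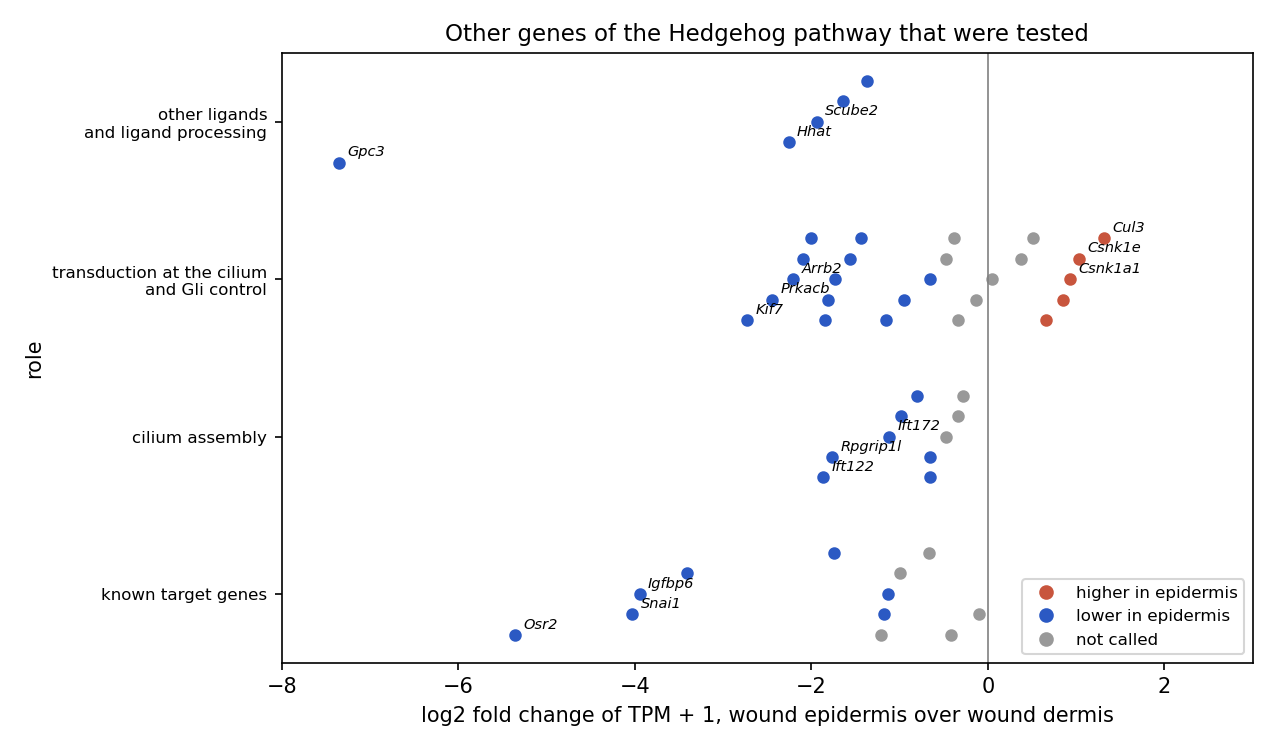
Log2 fold change of TPM + 1, wound epidermis over wound dermis, for tested Hedgehog pathway genes other than the 9 members, in rows by role; red is called higher in epidermis, blue called lower and grey not called. The 5 red points all lie in the row of transduction genes, and Gpc3 at -7.36 lies farthest left.

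The genes whose levels ran most like those of Ptch1 and Gli3 over the 6 libraries were found by the root mean square difference of log2 values after centring each gene. For Ptch1 these were Gm31258, a predicted gene, Plbd2 and Nr2c1, with differences of 0.05 each. For Gli3 they were Arhgap31, Nedd9 and Gab3, with differences of 0.07, 0.08 and 0.08. Arhgap31 had 0.89, 0.58 and 1.08 TPM in epidermis replicates 1 to 3, against 17.6, 12.9 and 13.5 TPM in dermis replicates 1 to 3. All of these libraries share the split between tissues, so the likeness is a description.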

How the data were processed

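The authors deposited 1 mouse table of TPM values with 1 column per library. The submitters' processing notes name Bowtie 1.0.0, RSEM 1.2.31 and mm10; annotation, settings and strand use are not stated in the sources read. According to the labels, cDNA was made from either 10 or 100 ng of RNA and sequenced as single-end reads of 43 or 86 bases, without saying how this was divided over libraries, so no batch could be formed from it. Ensembl identifiers gave symbols for 49289 of 49548 genes, with GENCODE positions on mm10. The rat table was not used, because its identifiers were not paired with names here.

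From the deposited TPM, log2(TPM + 1) was fitted by limma 3.58.1 (R 4.3.3, mean-variance trend) on all 6 mouse libraries. A gene entered if 3 or more libraries had 1 TPM or more, which left 15982. Benjamini-Hochberg adjustment ran over all of these, and calls had adjusted p under 0.05. The procedure was also run on simulated data, with changes planted only in more abundant genes. That run therefore does not bear on members near 1 TPM. Alternatives were other pseudocounts, filters, scalings and variance models, the 50 most abundant genes left out, the replicate number as a block, and libraries left out. The members and gene lists were chosen with earlier results of these data known. Named pathway genes are the 3 called genes of each role with the largest change per direction, if the higher tissue had a mean of 1 TPM or more, and the other ligands, Hhip, layer markers and the 3 genes most like Ptch1 and Gli3. Disp1, Sufu, Ulk3, Grk2, Fbln1, Crabp1, Rspo3, Lepr, the Schwann markers and the genes listed as not called were named after their values were seen. Some genes of the lists are not reported here.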

Additional observations from a re-analysis of the deposited data

How the results depend on the processing

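Of 283 values of the 21 named or member genes under alternative settings, 272 kept direction and side of the threshold, 11 missed it and 0 reversed. Settings in which a gene did not pass the filter gave no value and are not among the 283. The median of all genes was -0.42 with TPM as deposited, -0.03 with median-of-ratios factors and 0.08 with quantile normalization, while higher genes made up 30.2%, 47.2% and 52.8% of the calls. In the same 2 scalings 4342 and 4694 genes were called higher, against 2721. Members called lower numbered 6, but 5 after median-of-ratios scaling, 4 after quantile normalization, and 3 of 4 tested with replicate 2 of both tissues left out; with each library left out in turn they numbered 3 to 6, the lowest without dermis replicate 3, and 0 were called higher in any setting. Fewer genes pass the filter with fewer dermis libraries, so Ptch1, Cdon, Gpc3, Scube2, Kif7, Osr2 and Snai1 have no value there. Other pathway genes called lower numbered 32, but 19 with a filter of 5 TPM, 20 after quantile normalization and 18 with replicate 2 of both tissues left out, and 17 to 30 with each library left out; those called higher numbered 5, but 8 after quantile normalization and 2 to 4 with each library left out. Over all genes 8996 were called, 5459 with replicate 2 of both tissues left out and 5288 to 8546 with each left out; of these 6275 were lower, 3272 with replicate 2 left out and 3256 to 6406 with each left out. Members under 1 TPM in every library numbered 1, but 2 after median-of-ratios scaling and 1 to 3 with each library left out. The 3 come without dermis replicate 3. In dermis alone the numbers were 1, 2 and 1 to 3. In epidermis alone they were 5, 4 and 5 to 6, where the 6 come without epidermis replicate 3, and 4 without the 50 most abundant genes. Same-numbered libraries deviated from their group means with correlations of -0.14, 0.09 and 0.19, so the numbers were not taken as pairs; with the replicate block 6 members and 31 and 4 other pathway genes were called lower and higher, and no member's call changed. The causes of these shifts were not tested beyond the number of genes and libraries entering each fit. TPM holds no depth, so members under 1 TPM cannot be given a counting limit.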
